A study of Homo sapiens with 12 samples.

Results

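The genes described here encode the lysosome of a leukemia cell: its soluble enzymes, its membrane proteins, the proton pump that acidifies it, and the transcription factors known to control them. They were chosen as a list of 52 lysosomal symbols, with the glycosphingolipid hydrolases left out, and all 52 were found by Ensembl identifier among the 20036 genes of the deposited table. By role they were 8 cathepsins, 17 other lysosomal enzymes, 9 membrane and lumenal proteins, 3 factors of the MiT/TFE family, and 15 subunits and accessory proteins of the vacuolar ATPase (V-ATPase). The rule itself uses no measured value, but the members were chosen with earlier results of these data known.

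Lysosomes break down proteins, glycans, lipids and nucleic acids delivered by endocytosis and autophagy, with hydrolases that work in an acid lumen. The V-ATPase provides the acid: its cytosolic V1 sector hydrolyses ATP and its membrane V0 sector carries protons across the membrane. TFEB, TFE3 and MITF are transcription factors that, when the kinase complex mTORC1 at the lysosomal surface is inactive, move to the nucleus and bind a short palindromic element, the CLEAR motif, in promoters of many lysosomal genes.

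RNA was sequenced from MV-4-11 cells, an established line from acute myeloid leukemia, labelled WT for genotype. Cells were treated for 48 h in 4 groups of 3 libraries, named DMSO for the vehicle, ELI for eliglustat, ABT for venetoclax and Comb for the 2 drugs together. Eliglustat inhibits glucosylceramide synthase, the enzyme that makes the first glycosphingolipid from ceramide, and venetoclax binds the survival protein BCL2. The labels state no dose, and all groups are a single cell line. Whether the 3 libraries of a group were grown as separate cultures is not stated, so a p-value reflects only the spread between these libraries, which may be technical. Expression was deposited as FPKM, read counts scaled to gene length and to the size of the library. Levels below are FPKM, and differences are differences of group means of log2(FPKM + 1), which understates changes of genes with low values. A difference was called when its adjusted p from limma, over the 9959 genes that reached 1 FPKM in at least 3 libraries, was under 0.05. Of the 52 members, 45 were tested.

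Depth was 17259889 to 21082288 gene-assigned reads a library. Defining genes of the myeloid leukemia line were present, with CD33 at 25.6 ± 1.29 FPKM and SPI1 at 108 ± 13.7 FPKM in DMSO (SD, n = 3), while MPO was at 1.34 ± 0.202 FPKM. The 5 T cell markers followed summed to at most 0.0490 FPKM. Macrophages are rich in lysosomes, so 18 monocyte and macrophage markers were followed too: 10 stayed under 1 FPKM in every library, among them CD14, CD163 and MRC1, and the sum of all 18 was 269 to 276 FPKM in DMSO, 223 to 231 in ELI, 228 to 238 in ABT and 236 to 242 in Comb. That sum was set largely by LYZ, MPEG1 and TYROBP, and single markers moved both ways. Of 8 tested, 4 rose and 2 fell with eliglustat, where 16.4% of all tested genes rose and 19.8% fell. With both drugs 3 rose and 3 fell, where 25.7% of all genes rose and 25.8% fell. With venetoclax alone 1 fell, where 0.151% of all genes fell. FCGR2A, an Fc receptor, rose from a mean of 2.81 FPKM in DMSO to 7.09 in ELI and 8.28 in Comb, and the adaptor TYROBP from 55.8 to 66.6 and 82.6. Means of MPEG1 went the other way, from 65.9 in DMSO to 58.9 in ELI and 21.2 in Comb (43.6 in ABT). So did those of LYZ, from 111 to 56.4 and 90.4 (103 in ABT), and of ITGAM, from 1.34 to 0.946 and 0.677 (0.810 in ABT). Of 10 genes of the myelomonocytic leukemia line, 9 were tested. With eliglustat 3 rose and 2 (MPO and CSF3R) fell, beside 16.4% and 19.8% of all genes. Their sum, 428 to 483 FPKM in DMSO, 376 to 442 in ABT, 541 to 568 in ELI and 517 to 529 in Comb, moved mostly with FLT3, at means of 261, 216, 352 and 323. Sums of 5 B cell genes (5.11 to 6.62 in DMSO, 2.22 to 3.27 in ELI) and of 6 stromal and epithelial genes (5.49 to 7.01 and 2.56 to 3.32) were low and moved the other way. The part of these lists in the results was not tested. Libraries of a group also differed by the GC content of genes: the Spearman correlation across genes between GC content and a library's deviation from the gene means ran from -0.79 in DMSO replicate 1 to 0.81 in DMSO replicate 2, and results that depend on it are named below.

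The 8-letter core of the CLEAR motif was found in promoters of 7 members. RefSeq promoters of GRCh38.p14, each 300 bases from 250 before to 50 after an annotated start, were at hand for 38 of the 52 members, 57 promoters in all. The 8 letters TCACGTGA, searched on both strands, were in 14% of these 57 promoters, in 0.98% of all 35116 promoters and in 1.87% of the 11809 promoters of tested genes. With a further G before and C after it, the palindrome was in 3 members (ATP6V1G1, GAA and MCOLN1), 5.26% of their promoters, 0.353% of all and 0.779% of those of tested genes. Its 7-letter part TCACGTG was in 19.3%, 3.71% and 5.62%. A variant E-box, TCATGTG, was in 12.3%, 2.92% and 1.68%. A match is a description of the letters and not evidence of binding. The CLEAR motif is known from promoters of lysosomal genes, so its higher share among these members is no result of these data.

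The promoters below belong to members on which the results turn: CTSA, LAMP1 and GRN, which rose, and GUSB, which fell. They lie at chr20:45891085-45891384 (plus strand), chr13:113296989-113297288 (plus strand), chr17:44345052-44345351 (plus strand) and chr7:65982164-65982463 (minus strand), are written 5′ to 3′ along the gene, and carry matches to TCACGTG or TCATGTG on either strand in capitals.
CTSA: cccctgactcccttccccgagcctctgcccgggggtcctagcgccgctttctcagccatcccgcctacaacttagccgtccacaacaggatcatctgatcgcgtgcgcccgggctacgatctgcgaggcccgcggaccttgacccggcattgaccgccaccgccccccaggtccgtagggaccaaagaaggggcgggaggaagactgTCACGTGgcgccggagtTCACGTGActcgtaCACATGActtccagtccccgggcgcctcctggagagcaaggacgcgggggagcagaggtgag
LAMP1: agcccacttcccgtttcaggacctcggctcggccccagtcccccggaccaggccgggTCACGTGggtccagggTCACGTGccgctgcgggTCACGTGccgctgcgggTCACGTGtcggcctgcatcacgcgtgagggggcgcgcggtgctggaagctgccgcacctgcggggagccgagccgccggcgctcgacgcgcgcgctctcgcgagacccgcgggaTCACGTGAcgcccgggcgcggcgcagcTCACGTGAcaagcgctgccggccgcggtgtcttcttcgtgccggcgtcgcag
GRN: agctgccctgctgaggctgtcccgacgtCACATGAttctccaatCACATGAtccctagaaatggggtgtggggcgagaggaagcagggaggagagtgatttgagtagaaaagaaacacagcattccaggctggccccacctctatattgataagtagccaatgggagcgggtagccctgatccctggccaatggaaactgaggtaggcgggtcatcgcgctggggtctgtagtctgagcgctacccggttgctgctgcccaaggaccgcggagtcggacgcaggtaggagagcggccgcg
GUSB: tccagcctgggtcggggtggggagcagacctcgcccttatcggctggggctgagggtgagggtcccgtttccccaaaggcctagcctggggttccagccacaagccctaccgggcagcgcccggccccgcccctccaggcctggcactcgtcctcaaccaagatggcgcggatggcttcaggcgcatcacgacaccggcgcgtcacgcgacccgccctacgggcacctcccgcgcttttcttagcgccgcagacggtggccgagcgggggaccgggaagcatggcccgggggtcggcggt
No letters are in capitals in the GUSB promoter, and none were matched in that of CTSH, the cathepsin with the largest rise.

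Shorter windows show the motif in members that differ in response. ATP6V1G1 (chr9:114587698-114587728, plus strand) and CTSD (chr11:1763956-1763986, minus strand) were called higher with both drugs than with vehicle. GAA (chr17:80101492-80101522, plus strand), MCOLN1 (chr19:7522570-7522600, plus strand) and ATP6V0D1 (chr16:67481199-67481229, minus strand) did not pass the main test in that comparison. Capitals mark the 7-letter match. LAMP1 above and these 5 members were chosen for their motif after the values were seen.
ATP6V1G1: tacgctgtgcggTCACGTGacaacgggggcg
CTSD: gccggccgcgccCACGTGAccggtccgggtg
GAA: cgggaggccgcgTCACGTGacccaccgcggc
MCOLN1: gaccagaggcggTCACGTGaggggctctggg
ATP6V0D1: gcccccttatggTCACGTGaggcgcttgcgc
Of the 7 members with the 8-letter palindrome, CTSA, LAMP1 and ATP6V1G1 were called higher with both drugs, ATP6V0D1, GAA and MCOLN1 did not pass, and CLN3 was under the filter on low values.

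**Figure D1:**
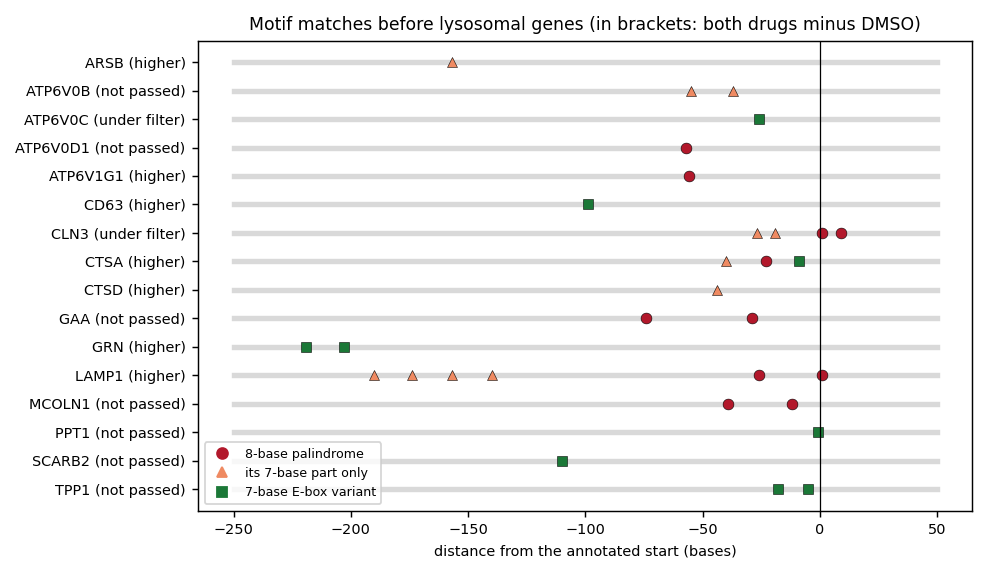
Positions of motif matches in the RefSeq promoters of members that have at least 1, as distance in bases from the annotated start (vertical line at 0; grey bars, the 300 bases searched; where a gene has several promoters, their matches share a row). Circles mark the 8-letter palindrome, triangles its 7-letter part alone and squares the variant E-box, and brackets give the call for both drugs against DMSO: rows with circles include called members such as CTSA and LAMP1 and members that did not pass, such as GAA and MCOLN1.

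Much of this gene set was higher with eliglustat, with or without venetoclax, and no member passed the test with venetoclax alone. With eliglustat against DMSO, 26 of the 45 tested members rose and 3 fell, where 16.4% of all tested genes rose and 19.8% fell (36.1% called in all). With both drugs against DMSO, 29 rose and 3 fell, where 25.7% of all genes rose and 25.8% fell (51.5% in all). With both drugs against venetoclax, 28 rose and 4 fell, where 35.4% rose and 31.7% fell (67.2% in all). The median difference of the members was 0.28, 0.41 and 0.37 in these comparisons, against 0.01, 0.02 and 0.02 over all genes. A total made from bulk RNA cannot tell fewer cells of a type from less RNA per cell.

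The changes were uneven by role. Beside shares of 16.4%, 25.7% and 35.4% of all genes that rose, cathepsins rose in 6 of 7 tested cases in each of these 3 comparisons. V-ATPase genes rose in 10, 11 and 10 of 14, and membrane and lumenal proteins in 5, 6 and 7 of 8. The other hydrolases rose in 5, 5 and 4 of 14 (35.7%, 35.7% and 28.6%) and fell in 1, 2 and 2. Against venetoclax their share that rose was below the one over all genes. The roles were not tested against each other. Because FPKM is per length, members can be summed by role. The 15 V-ATPase genes summed to 372 ± 9.58 FPKM in DMSO, 477 ± 2.68 under ELI, 369 ± 4.79 under ABT and 519 ± 2.26 under Comb (SD, n = 3). The 17 other enzymes summed to 258 ± 20.9, 264 ± 8.62, 268 ± 11.1 and 270.5 ± 4.78 FPKM, so their groups overlapped.

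**Figure D2:**
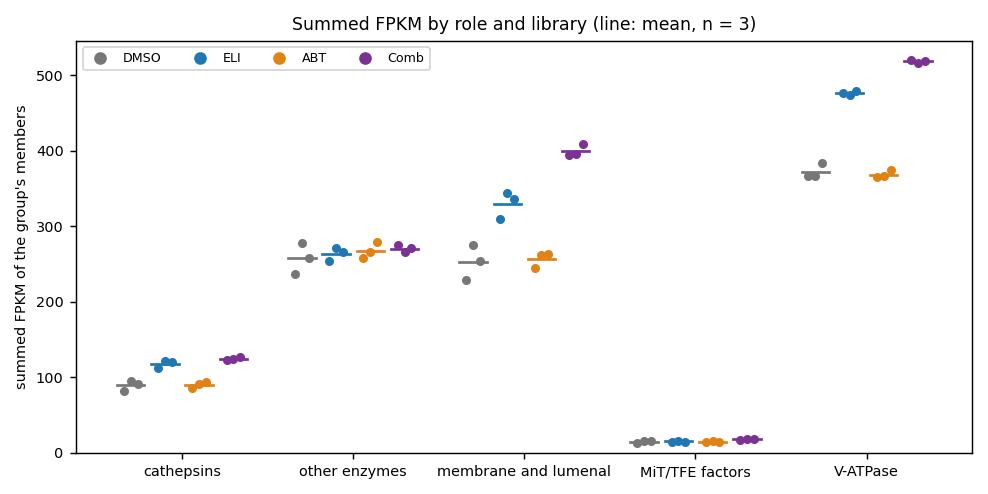
Summed FPKM of all members of each role in every library (points; lines, group means of 3 libraries). For V-ATPase, membrane and lumenal proteins and cathepsins every ELI and Comb library lies above every DMSO and ABT library, as in the cathepsin sums of 112 to 121 FPKM in ELI against 82.0 to 94.6 in DMSO, while the sums of the other enzymes overlap between groups.

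Venetoclax alone against DMSO gave 0 called members by limma, where 0.151% of all genes were called, and 5 of the 45 members had an unadjusted p under 0.05, against 2011 of the 9959 genes. limma's voom on reads recovered from the FPKM values also called 0. Same-numbered DMSO, ELI and ABT libraries deviated together, though the labels name no batch. A fit of these 9 libraries with the number as a block called 4 members lower: ATP6V1A at -0.31 (adjusted p = 0.019), ATP6V1C1 at -0.31 (0.042), ATP6V1D at -0.31 (0.033) and SCARB2 at -0.30 (0.022). That block called 23.6% of all genes in this comparison. Without DMSO replicate 2, ATP6V1A (adjusted p = 0.046), ATP6V1D (0.039), SCARB2 (0.045) and cathepsin CTSS (0.046) were called lower. The GC content of these 5 genes is 39.5% to 45.2%, and none of them was called once the trend of differences with GC content and length was removed.

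**Figure D3:**
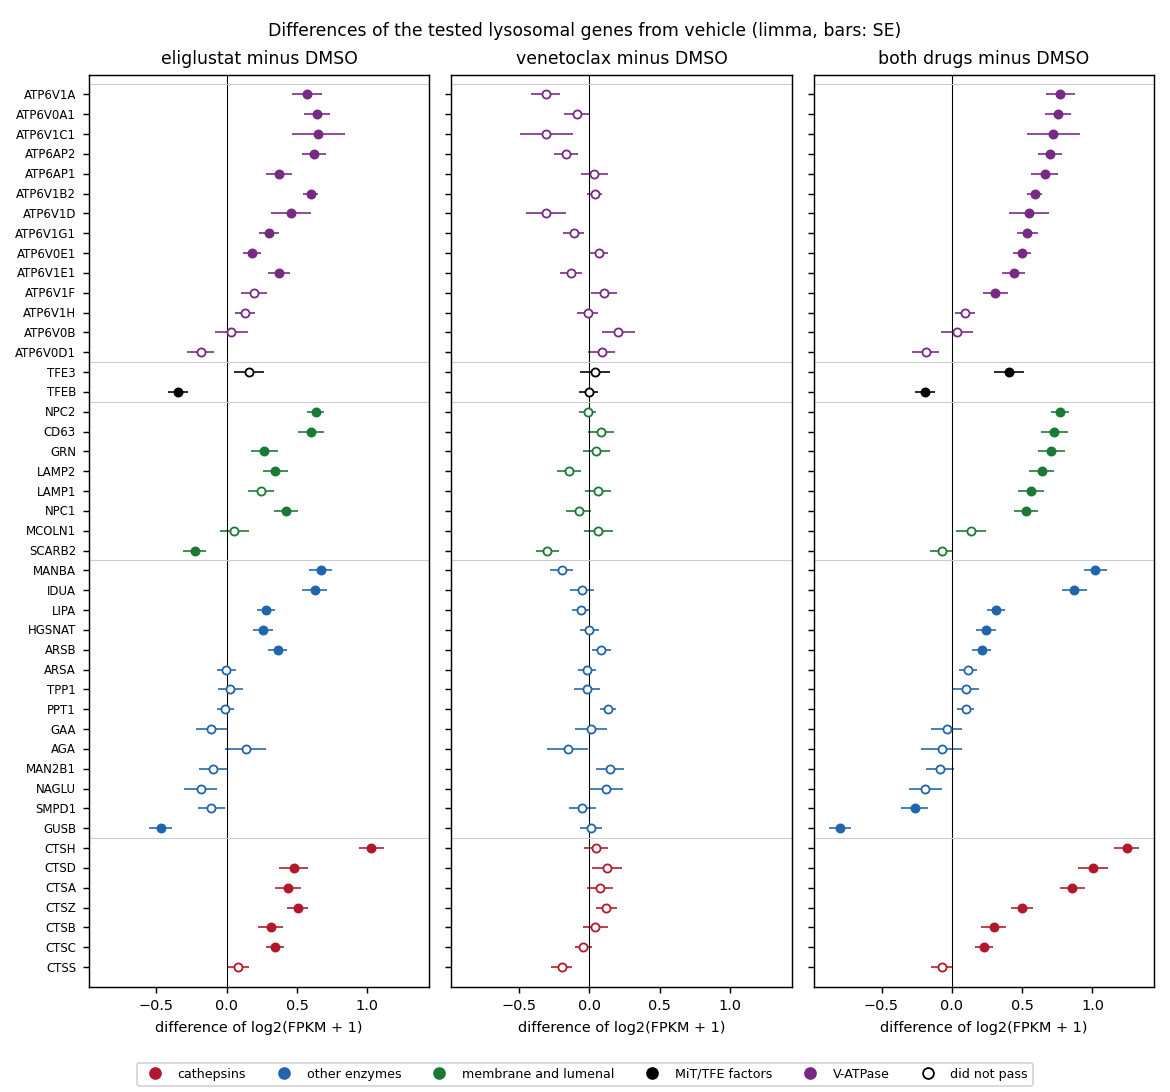
Difference of log2(FPKM + 1) from DMSO for the 45 tested members with eliglustat, venetoclax or both drugs (points, limma estimates; bars, SE; filled, called at adjusted p under 0.05; colours, role). With eliglustat and with both drugs most cathepsins, V-ATPase genes and membrane proteins lie to the right of 0, up to 1.24 for CTSH with both drugs, and no point of the venetoclax panel is filled.

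Cathepsins are the main proteases of the lysosome. CTSH (ENSG00000103811), an aminopeptidase of the cysteine class, was at 4.0, 5.17 and 4.87 FPKM in DMSO replicates 1 to 3, 9.70, 11.3 and 10.7 under ELI, 4.62, 4.72 and 5.21 under ABT and 12.1, 12.1 and 12.9 under Comb. Every library with eliglustat lay above every library without it, and mean FPKM was 2.26-fold higher in ELI and 2.65-fold higher in Comb than in DMSO. On the log2 scale its difference was 1.03 (SE 0.09, limma adjusted p = 7e-06) for eliglustat and 1.24 (SE 0.09, adjusted p = 3.4e-07) for both drugs, the largest rise among the tested members in both comparisons.

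CTSD (ENSG00000117984), the main aspartic protease, had 4.70, 6.49 and 5.38 FPKM in DMSO, 7.33, 8.24 and 8.51 under ELI, 5.78, 5.93 and 6.53 under ABT and 10.8, 13.2 and 12.2 under Comb. Its level was highest in the 3 libraries with both drugs, none of which overlapped an ELI library. The difference was 0.48 (SE 0.10, adjusted p = 0.0046) for eliglustat, 1.00 (SE 0.10, adjusted p = 1.1e-05) for both drugs and 0.53 (adjusted p = 0.0064) between both drugs and eliglustat. In GENCODE 29, 41.7% of its exonic bases are shared with another coding gene on the same strand and 15.8% with the other strand, so its level is uncertain to that extent.

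CTSA (ENSG00000064601), a carboxypeptidase that also shields β-galactosidase and neuraminidase, had 6.76, 8.53 and 7.86 FPKM in DMSO, 10.1, 11.2 and 11 under ELI, 7.26, 8.21 and 9.09 under ABT and 14.8, 14.8 and 14.7 under Comb. It too rose by 0.44 (adjusted p = 0.0033) with eliglustat and 0.86 (adjusted p = 1.2e-05) with both drugs, and stood 0.42 (adjusted p = 0.01) above eliglustat alone, a call lost without ELI replicate 1 (adjusted p = 0.051). Genes on the other strand share 28.5% of its exonic bases, and the strand setting of the counting is not given.

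CTSZ, a carboxypeptidase, CTSB, a cysteine protease with both endo- and exopeptidase activity, and CTSC, which activates serine proteases of myeloid granules, rose less. Their differences with eliglustat were 0.50 for CTSZ, 0.31 for CTSB and 0.34 for CTSC, and with both drugs 0.50, 0.30 and 0.23. CTSB had the highest cathepsin level, with 43.4 ± 5.54 FPKM in DMSO and 53.2 ± 0.947 in Comb. Its eliglustat call was lost without ELI replicate 2 (adjusted p = 0.055) or 3 (0.056), and its call against venetoclax without ABT replicate 1 or Comb replicate 1 or 3 (0.057 to 0.085). CTSC has the lowest GC content of the tested cathepsins, 38.2%, and with the GC and length trend removed its difference was 0.06 with eliglustat (adjusted p = 0.72) and -0.08 with both drugs (adjusted p = 0.6). Against venetoclax it turned from 0.27 to -0.35 (adjusted p = 0.026).

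CTSS, a cysteine protease of antigen-presenting cells, did not pass, at 13.1, 10.6 and 11.9 FPKM in DMSO and 10.7, 11.2 and 11.6 under Comb, with a 95% interval of -0.24 to 0.10 for the difference. With the GC and length trend removed it was called lower with both drugs than with DMSO (-0.30, adjusted p = 0.0037). CTSL was listed at 0 in all 12 libraries, and it has 6 named pseudogenes.

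**Figure D4:**
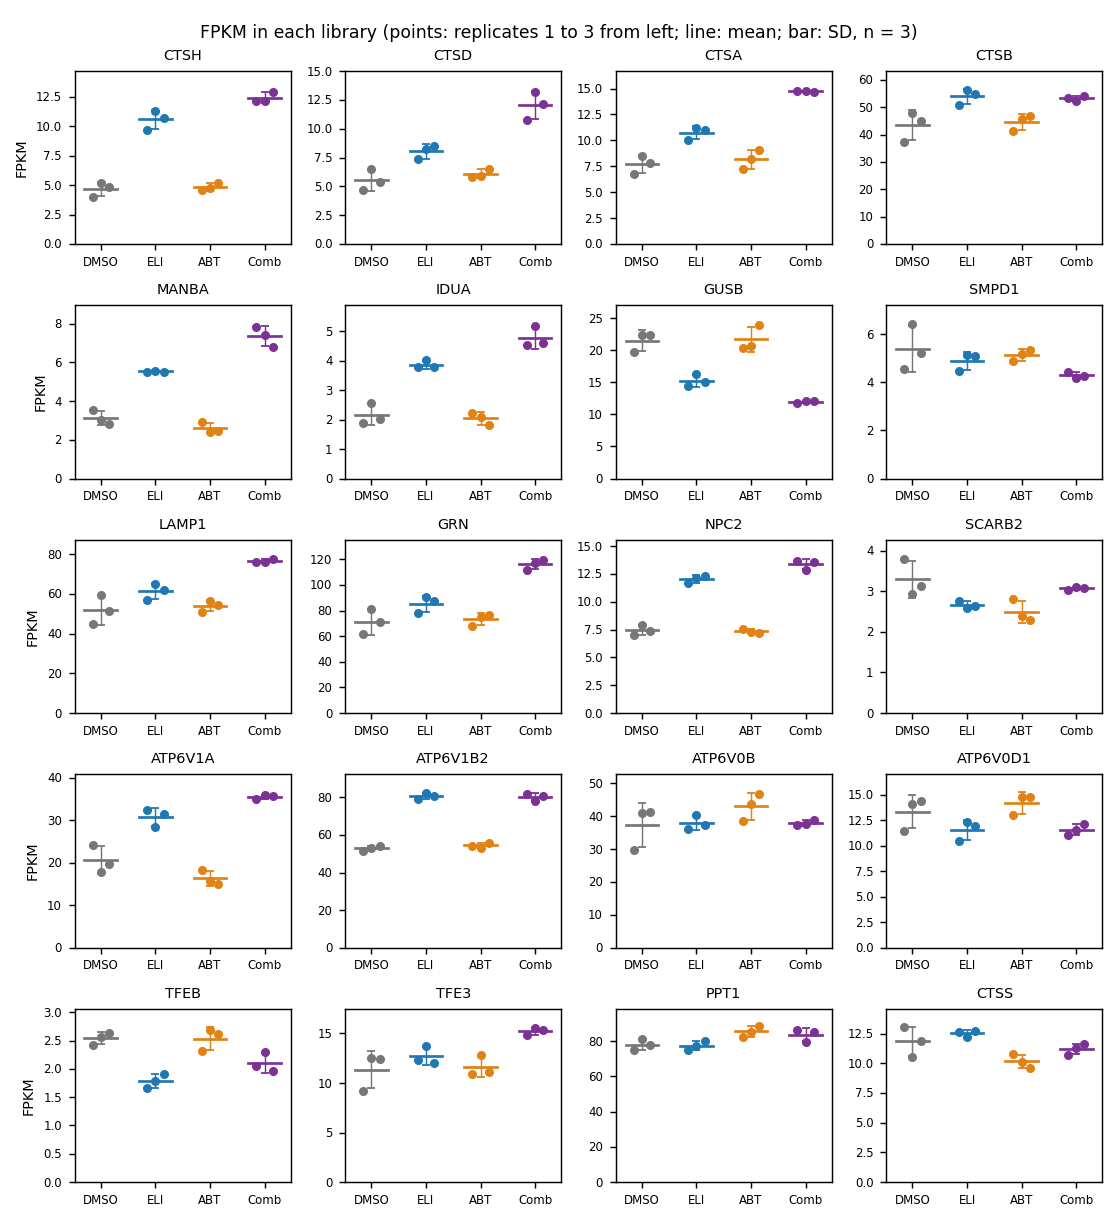
FPKM of 20 members in each library by group (points, replicates 1 to 3 from left to right; horizontal lines, means; bars, SD, n = 3; every axis starts at 0). CTSH, MANBA, IDUA, NPC2 and ATP6V1B2 separate the libraries with eliglustat from those without it, GUSB does so in the opposite direction, and the 4 groups of ATP6V0B overlap.

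Among the other hydrolases, MANBA and IDUA rose most and GUSB fell most. MANBA (ENSG00000109323), the β-mannosidase that takes the last mannose from N-glycans, was at 3.56, 3.0 and 2.82 FPKM in DMSO, 5.53, 5.58 and 5.52 under ELI, 2.90, 2.41 and 2.48 under ABT and 7.84, 7.41 and 6.82 under Comb. All 4 groups separated except DMSO and ABT, and the mean in Comb was 2.83-fold that in ABT. It rose by 0.67 (SE 0.08, adjusted p = 0.00012) with eliglustat and by 1.22 (SE 0.08, adjusted p = 2.2e-07) with both drugs relative to venetoclax.

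IDUA, the α-L-iduronidase of heparan and dermatan sulfate breakdown, was at 1.90, 2.56 and 2.02 FPKM in DMSO, 3.79, 4.01 and 3.78 under ELI, 2.22, 2.09 and 1.81 under ABT and 4.53, 5.18 and 4.59 under Comb. Its libraries with eliglustat again lay above all those without it, and the difference was 0.63 (adjusted p = 0.00027) for eliglustat and 0.87 (adjusted p = 8.1e-06) for both drugs. HGSNAT, the membrane acetyltransferase of heparan sulfate breakdown, rose by 0.26 and 0.25, the first lost without ELI replicate 2 (adjusted p = 0.055). ARSB, which removes sulfate from dermatan and chondroitin sulfate, rose by 0.36 and 0.21, the second lost without DMSO replicate 3 (adjusted p = 0.054) or Comb replicate 1 (0.086).

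LIPA, the acid lipase that frees cholesterol and fatty acids, rose by 0.28 with eliglustat (adjusted p = 0.0063) and by 0.31 with both drugs (adjusted p = 0.0018). Its GC content is 42.8%, and with the GC and length trend removed neither call remained (adjusted p = 0.22 and 0.088).

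GUSB (ENSG00000169919), the β-glucuronidase of glycosaminoglycan breakdown, fell. It was at 19.7, 22.4 and 22.4 FPKM in DMSO, 14.4, 16.3 and 15 under ELI, 20.4, 20.7 and 23.9 under ABT and 11.8, 12.1 and 12 under Comb. Every library with eliglustat lay below every library without it, and mean FPKM in Comb was 0.557 times that in DMSO. The difference was -0.47 (SE 0.08, adjusted p = 0.00091) with eliglustat and -0.79 (SE 0.08, adjusted p = 7.1e-06) with both drugs. GUSB has 11 named pseudogenes, with which reads could be shared.

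SMPD1, the acid sphingomyelinase that makes ceramide, was at 4.57, 6.45 and 5.22 FPKM in DMSO and 4.43, 4.19 and 4.29 under Comb. Every Comb library was below every DMSO library, with a difference of -0.26 (adjusted p = 0.037) that was lost without any 1 of 6 libraries (adjusted p 0.0504 to 0.14: DMSO replicates 2 and 3, ABT replicate 2 and each Comb replicate). NAGLU, an exoglycosidase of heparan sulfate, was called lower only against venetoclax (-0.31, adjusted p = 0.033), and not without ABT replicate 2 or 3 or Comb replicate 1 or 2 (0.066 to 0.13).

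The remaining 6 tested hydrolases passed in none of the comparisons by the main test. They include the most abundant ones: PPT1, the palmitoyl-protein thioesterase, had a mean of 81.1 FPKM over all libraries, MAN2B1, the lysosomal α-mannosidase, 39.2, and TPP1, a tripeptidyl peptidase, 37.8. The 95% intervals of the difference between both drugs and DMSO were -0.03 to 0.23 for PPT1, -0.30 to 0.13 for MAN2B1 and -0.10 to 0.30 for TPP1. Those of GAA, the acid α-glucosidase, ARSA, which desulfates sulfatide, and AGA, which cleaves glycosylated asparagine, were -0.28 to 0.21, -0.03 to 0.26 and -0.40 to 0.25. The upper ends of these 6 intervals were at most 0.30. With the GC and length trend removed, both drugs against venetoclax called ARSA (0.31), TPP1 (0.20) and GAA (0.15) higher. MAN2B1 was called lower in that comparison with the replicate block (-0.23, adjusted p = 0.011), with median-of-ratios scaling (0.029), with only the libraries compared (0.0098) and without DMSO replicate 1 (0.006), DMSO replicate 2 (0.028), ABT replicate 1 (0.032) or the 4 libraries numbered 1 (0.002). Without DMSO replicate 1 it was also lower against DMSO with eliglustat (0.019) and with both drugs (0.023). Under the filter were LGMN, the asparaginyl endopeptidase, at 0.0431 to 0.156 FPKM, IDS, the iduronate sulfatase, at 0.211 to 0.533, and SGSH, the sulfamidase, at 0.0454 to 0.310.

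Most membrane and lumenal proteins rose, with the largest differences under both drugs. NPC2 (ENSG00000119655), the lumenal carrier that hands cholesterol to NPC1, was at 7.0, 7.88 and 7.41 FPKM in DMSO, 11.7, 12.1 and 12.3 under ELI, 7.57, 7.29 and 7.21 under ABT and 13.6, 12.8 and 13.6 under Comb. Libraries with and without eliglustat did not overlap, and it rose by 0.63 (SE 0.06, adjusted p = 2e-05) and 0.77 (SE 0.06, adjusted p = 1.1e-06). Its partner NPC1, the membrane cholesterol exporter, rose by 0.42 and 0.53.

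CD63, a tetraspanin and the member with the highest level, was at 63.4, 80.2 and 77.8 FPKM in DMSO, 103, 117 and 115 under ELI, 71, 79.3 and 83.5 under ABT and 121, 119 and 127 under Comb. It rose by 0.60 (adjusted p = 0.00058) with eliglustat and 0.73 (adjusted p = 5.7e-05) with both drugs.

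LAMP1 (ENSG00000185896), a heavily glycosylated protein that lines the membrane, was at 44.8, 59.6 and 51.3 FPKM in DMSO, 56.9, 64.9 and 61.9 under ELI, 51, 56.6 and 54.3 under ABT and 76.1, 76.2 and 77.7 under Comb. Its ELI values overlap DMSO, while each Comb value exceeds all others. With eliglustat alone it did not pass (0.24, adjusted p = 0.058), though it did with the replicate number as a block (adjusted p = 0.014), and with both drugs it rose by 0.56 (SE 0.09, adjusted p = 0.00036). LAMP2, its relative that also serves chaperone-mediated autophagy, rose by 0.35 with eliglustat and 0.64 with both drugs. At 37.7% its GC content is the lowest of the tested members, and its eliglustat call was lost on removing the GC and length trend (0.06, adjusted p = 0.58). With both drugs the difference was then 0.33 against DMSO (adjusted p = 0.0034) and 0.18 against venetoclax (adjusted p = 0.072), from 0.78 before.

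GRN (ENSG00000030582), the progranulin precursor whose fragments act in the lumen, was at 61.4, 81.4 and 70.7 FPKM in DMSO, 78.4, 90.7 and 87.1 under ELI, 68.1, 75.3 and 76.8 under ABT and 112, 117 and 119.5 under Comb. As for LAMP1, the Comb libraries stood above all others: the difference was 0.71 (SE 0.10, adjusted p = 8.5e-05) from DMSO and 0.44 (adjusted p = 0.011) from eliglustat alone. The eliglustat difference of 0.27 (adjusted p = 0.047) was lost without any 1 of 9 libraries (adjusted p 0.055 to 0.14; it remained only without DMSO replicate 2, ELI replicate 1 or ABT replicate 1).

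SCARB2, the receptor that carries glucocerebrosidase to the lysosome, went the other way with eliglustat, at 3.81, 2.95 and 3.14 FPKM in DMSO, 2.76, 2.58 and 2.64 under ELI, 2.81, 2.39 and 2.28 under ABT and 3.03, 3.11 and 3.08 under Comb. Every ELI library was below every DMSO library, with a difference of -0.23 (adjusted p = 0.049), a call lost without any 1 of 10 libraries (adjusted p 0.0502 to 0.12; kept without DMSO replicate 2 or ABT replicate 1). Against venetoclax the Comb libraries were higher by 0.22 (adjusted p = 0.03), lost without ABT replicate 2 or 3 or any Comb replicate (0.059 to 0.11), and this turned to -0.15 (adjusted p = 0.018) on removing the GC and length trend. MCOLN1, the calcium channel of the membrane, did not pass (0.13 with both drugs, 95% interval -0.09 to 0.36) but did with that trend removed (0.28, adjusted p = 0.0012), and CLN3 was under the filter at 0.192 to 0.326 FPKM.

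Most genes of the proton pump rose. Of 8 V1 genes, 6 rose with eliglustat and 7 with both drugs, with medians of 0.41 and 0.54. Of 4 tested V0 genes 2 rose in each case, with medians of 0.11 and 0.27, and both accessory genes rose, with medians of 0.50 and 0.68. The sectors were not tested against each other, and of all genes 16.4% rose with eliglustat and 25.7% with both drugs.

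ATP6V1A (ENSG00000114573), the catalytic subunit that binds ATP, was at 24.2, 17.7 and 19.8 FPKM in DMSO, 32.5, 28.4 and 31.6 under ELI, 18.2, 15.7 and 15 under ABT and 34.9, 36 and 35.7 under Comb. Each library with eliglustat exceeded each one without it, and the difference was 0.57 (SE 0.11, adjusted p = 0.0017) with eliglustat, 0.77 (SE 0.11, adjusted p = 9.5e-05) with both drugs and 1.08 (SE 0.11, adjusted p = 5.2e-06) against venetoclax. ATP6V1B2 (ENSG00000147416), its partner in the hexamer that turns the rotor, was at 51.5, 53.2 and 54.3 FPKM in DMSO, 79.1, 82.5 and 80.6 under ELI, 54.3, 53.3 and 55.9 under ABT and 81.8, 78.2 and 80.9 under Comb. Its rise in ELI and Comb differed by less than its error, 0.60 (SE 0.05, adjusted p = 9.3e-06) and 0.59 (SE 0.05, adjusted p = 2.7e-06), with a 95% interval of -0.12 to 0.11 for the difference between these groups.

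ATP6V1C1, which links the stators of V1 to the V0 sector, was at 37.6, 20.2 and 26.5 FPKM in DMSO, 48.8, 38.8 and 43 under ELI, 27.4, 20.1 and 18.9 under ABT and 43.9, 48.9 and 44.1 under Comb. DMSO replicate 1 stood well above the other 2 DMSO libraries and close to ELI replicate 2, and the eliglustat difference of 0.65 (SE 0.19, adjusted p = 0.021) was lost without DMSO replicate 2 (0.45, adjusted p = 0.077), DMSO replicate 3 (0.062), ELI replicate 1 (0.082) or ELI replicate 3 (0.053). ATP6V1D, of the central stalk, rose by 0.45 and 0.55, the first lost without DMSO replicate 2 (0.26, adjusted p = 0.079), ELI replicate 1 (0.096) or ELI replicate 3 (0.079).

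The stator subunits ATP6V1E1 and ATP6V1G1 rose by 0.37 and 0.30 with eliglustat and by 0.44 and 0.54 with both drugs. ATP6V1F, of the central stalk, rose with both drugs (0.31, adjusted p = 0.015) and did not pass with eliglustat alone (0.19, adjusted p = 0.12), though it did with the replicate block (0.026), on removing the GC and length trend (0.00068) and without the 4 libraries numbered 1 (0.046). ATP6V1H, a regulatory subunit, did not pass, with 95% intervals of -0.03 to 0.29 and -0.06 to 0.25.

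In the membrane sector, ATP6V0A1, the subunit that forms the path for protons, was at 4.71, 5.97 and 6.31 FPKM in DMSO, 8.41, 10.0 and 9.63 under ELI, 5.28, 5.19 and 5.26 under ABT and 10.8, 9.79 and 10.0 under Comb. It rose by 0.64 (SE 0.09, adjusted p = 0.00037) and 0.76 (SE 0.09, adjusted p = 4.3e-05), with no overlap between libraries with and without eliglustat. ATP6V0E1, a small subunit, rose mainly with both drugs, by 0.50 against DMSO and 0.32 against eliglustat (adjusted p = 0.0068), while its eliglustat difference of 0.18 (adjusted p = 0.045) was lost without any 1 of 10 libraries (adjusted p 0.052 to 0.17; kept without ABT replicate 1 or 3).

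ATP6V0B, of the proton-carrying ring, did not pass and had 95% intervals of -0.22 to 0.28 and -0.21 to 0.29 against DMSO. With both drugs against venetoclax it was called lower without DMSO replicate 1 (-0.17, limma adjusted p = 0.040). The same held without the 4 libraries numbered 1 (-0.24, 0.0049). With the GC and length trend removed that difference was 0.0034 (0.97). ATP6V0D1, which couples the ring to the stalk, was at 11.4, 14.1 and 14.4 FPKM in DMSO, 10.5, 12.3 and 11.9 under ELI, 13, 14.8 and 14.7 under ABT and 11, 11.5 and 12.1 under Comb. It did not pass with eliglustat against DMSO (-0.18, adjusted p = 0.14, and 0.027 with the replicate block). With both drugs against DMSO its difference was -0.19 (adjusted p = 0.12), called lower with the replicate block (0.02), without DMSO replicate 1 (0.0084) and without the 4 libraries numbered 1 (0.0051). It was lower against venetoclax (-0.27, adjusted p = 0.022), a call lost without ABT replicate 2 or 3 or Comb replicate 1 or 2 (0.055 to 0.077) and with the GC and length trend removed (0.17). ATP6V0C, the other ring subunit, was listed at 0.105 to 0.622 FPKM and was not tested. In GENCODE 29, 72.1% of its exonic bases are shared with 2 other coding genes on the same strand and 4 pseudogenes carry its name, so this low level is uncertain.

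Both accessory proteins rose. ATP6AP2, the renin receptor that helps assemble the pump, was at 14.3, 11.3 and 12.7 FPKM in DMSO, 21.1, 19.4 and 19.9 under ELI, 12.3, 10.7 and 10.8 under ABT and 21.3, 22 and 20.7 under Comb, with differences of 0.62 (adjusted p = 0.00021) and 0.70 (adjusted p = 3.4e-05). ATP6AP1 rose by 0.37 (adjusted p = 0.011) and 0.66 (adjusted p = 0.00015).

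The transcription factors did not rise together. TFEB (ENSG00000112561) was at 2.43, 2.57 and 2.63 FPKM in DMSO, 1.67, 1.78 and 1.91 under ELI, 2.31, 2.68 and 2.62 under ABT and 2.05, 2.31 and 1.96 under Comb. Each ELI and Comb library lay below each DMSO library, with differences of -0.35 (SE 0.07, adjusted p = 0.0027) with eliglustat and -0.19 (SE 0.07, adjusted p = 0.037) with both drugs. The second was lost without DMSO replicate 2 or 3 or Comb replicate 1 or 3 (adjusted p 0.077 to 0.13) and with the GC and length trend removed (0.38). Against venetoclax the difference was -0.19 (adjusted p = 0.032), lost without ABT replicate 2 or 3 or Comb replicate 1 or 3 (0.086 to 0.12), and 0.01 (0.95) with that trend removed.

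TFE3 (ENSG00000068323) was at 9.16, 12.5 and 12.4 FPKM in DMSO, 12.3, 13.7 and 12 under ELI, 10.9, 12.8 and 11.1 under ABT and 14.8, 15.5 and 15.3 under Comb. All Comb libraries were above all others: it rose by 0.41 (SE 0.11, adjusted p = 0.0074) against DMSO and 0.37 (SE 0.11, adjusted p = 0.0092) against venetoclax. With eliglustat alone it did not pass (0.16, adjusted p = 0.25, and 0.0029 once GC and length were accounted for). With venetoclax alone the differences were -0.0045 for TFEB and 0.04 for TFE3, not passed and with 95% intervals of -0.16 to 0.15 and -0.19 to 0.27. MITF stayed under the filter at 0.489 to 0.895 FPKM. These are RNA levels and say nothing of where the proteins are.

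The effect of eliglustat can be compared without and with venetoclax, since ELI minus DMSO and Comb minus ABT share no library. Across the 45 members Pearson's r between these differences was 0.91 and Spearman's rho 0.91, and 42 had the same sign. Over all 9959 genes r was 0.90, rho 0.91, and 88.2% had the same sign, so the members were close to the background in this respect. Genes are not independent replicates, all points come from a single normalised fit, and low and high GC genes differed between these libraries, so this is a description. Of the members 25 were called higher in both comparisons, 2 (GUSB and TFEB) lower in both, and 1 (SCARB2) in opposite directions. Of all genes, 16.4% were called higher in the first comparison and 35.4% in the second. The share called alike in both was not counted over all genes, so these counts do not single out the members.

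**Figure D5:**
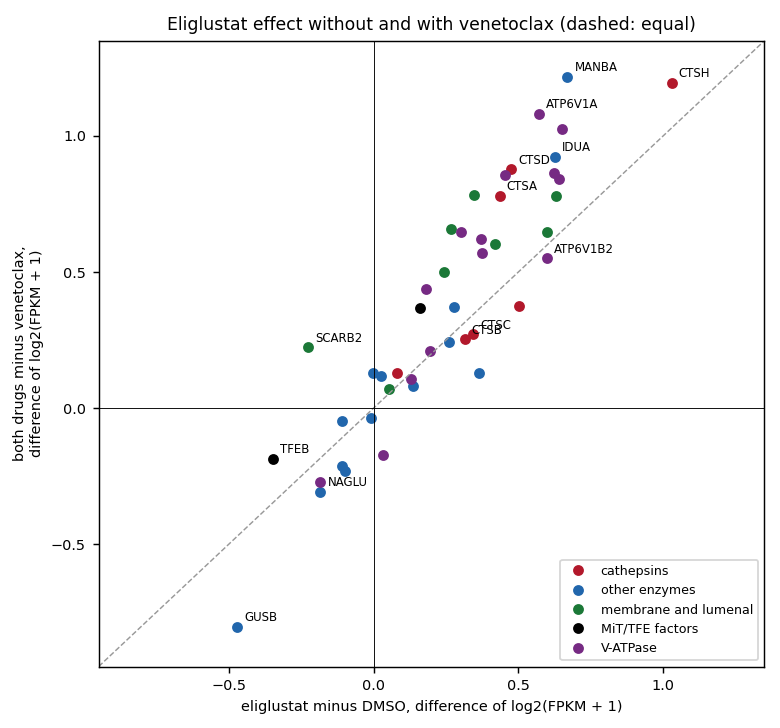
Difference of log2(FPKM + 1) for eliglustat against DMSO (horizontal) and for both drugs against venetoclax (vertical) for the 45 tested members, coloured by role, with the line of equality dashed. Most points lie in the upper right, many above the line, with MANBA at 0.67 and 1.22, while GUSB is at -0.47 and -0.80 and SCARB2 has opposite signs.

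A test of the difference between these 2 effects, the interaction, called 2 members higher, where 1.68% of all genes were higher and 3.67% lower (5.34% in all). They were MANBA (0.55, SE 0.12, adjusted p = 0.017) and SCARB2 (0.45, SE 0.12, adjusted p = 0.045). MANBA was lost without ELI replicate 3 (adjusted p = 0.051), ABT replicate 2 (0.056), Comb replicate 1 (0.054) or Comb replicate 2 (0.051), and SCARB2 without any 1 of 10 libraries (0.051 to 0.12; kept without DMSO replicate 2 or ABT replicate 1). Leaving out each of the 12 libraries gave 0 to 6 calls: 6 without DMSO replicate 2, 4 without DMSO replicate 1 or ABT replicate 1, 0 without ELI replicate 3, ABT replicate 2 or Comb replicate 1 or 2, and 1 without any other. A fit blocked on replicate number called 8, adding ATP6V1A, ATP6V1G1, CTSD, GRN, GUSB and LAMP2. That block also covers Comb, whose libraries did not deviate with the numbers, so its calls here are a description. For the other 43 a p over the threshold does not show equal effects: the 95% interval was 0.08 to 0.72 for CTSD, 0.17 to 0.71 for LAMP2 and -0.21 to 0.12 for ATP6V1B2.

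Both drugs against eliglustat alone called 6 members higher and 1 lower, where 3.03% of all genes were higher and 6.52% lower (9.55% in all). Higher were CTSD (0.53), GRN (0.44), CTSA (0.42), MANBA (0.35), LAMP1 (0.32) and ATP6V0E1 (0.32), and lower was GUSB (-0.32). CTSD and ATP6V0E1 alone kept their calls whichever library was left out. CTSA was lost without ELI replicate 1 (adjusted p = 0.051), GRN without that library or Comb replicate 3 (0.054 each), MANBA without any ELI replicate or Comb replicate 1 or 2 (0.054 to 0.088), GUSB without ELI replicate 2 or 3 or any Comb replicate (0.067 to 0.097), and LAMP1 without any 1 of 10 libraries (0.051 to 0.17; kept without DMSO replicate 1 or 2). The count was 3 without ELI replicate 1, 4 without ELI replicate 2 or 3 or any Comb replicate, and 11 without DMSO replicate 1 or 2.

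GC content moved with these comparisons, and its values stand beside the counts. The Spearman correlation between GC content and the difference over all genes was -0.48 for eliglustat against DMSO, 0.66 for venetoclax against DMSO, -0.38 for both drugs against DMSO and -0.54 for both drugs against venetoclax. The V-ATPase members have a median GC content of 46.1%, against 53.3% for cathepsins. After removal of the GC and length trend, eliglustat against DMSO called 26 members higher and 3 lower. Of these 25 were called without that step too, CTSC, LIPA, LAMP2 and ATP6V0E1 were lost, and LAMP1, MCOLN1, ATP6V1F and TFE3 were gained. Both drugs against DMSO then called 11 V-ATPase members, 5 cathepsins and 7 membrane proteins higher, and 1 cathepsin and 1 membrane protein lower. The share of all genes called after this removal is not stated, so these counts do not single out the members.

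Further genes of the lysosome, listed by function, were followed in the same fit. These lists were chosen with earlier results of these data known, so their shares are a description. Of 22 tested further hydrolases, 11 rose (50%, DNASE2 included) and 1 fell with both drugs against DMSO, where 25.7% of all genes rose and 25.8% fell. DNASE2, the acid DNase, was at 0.665, 0.801 and 0.618 FPKM in DMSO, 0.726, 0.694 and 0.767 under ELI, 0.770, 0.520 and 0.565 under ABT and 2.68, 2.63 and 2.35 under Comb. Its level was high in the 3 libraries with both drugs and under 1 FPKM in all others. DNASE2 thus passed the filter on low values only through that group, and its difference of 1.07 from DMSO is a description with no test. The cysteine cathepsin CTSO rose by 0.89 and PCYOX1, which degrades prenylated cysteine, by 0.87.

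Of 20 further membrane proteins 11 rose (55%) and 3 fell, where 25.7% of all genes rose and 25.8% fell. The largest rises were in SLC17A5, the sialic acid exporter (0.97), OSTM1 (0.72) and the chloride-proton exchanger CLCN7 to which OSTM1 binds (0.68). Of 9 further V-ATPase subunits and assembly factors, 4 rose and none fell (9 more were under the filter, and 25.7% and 25.8% of all genes rose and fell), among them RNASEK (0.76), DMXL2 (0.70) and WDR7 (0.22). Of 23 genes that sort proteins to the lysosome 7 rose (30.4%, near the share over all genes) and 3 fell. GNPTAB, of the enzyme that makes the mannose 6-phosphate tag, rose by 1.40 (adjusted p = 1.3e-05) and the retromer subunit VPS26A by 0.65, while the adaptor subunit AP1B1 fell by 0.62 on the log2 scale. Across all 6 further lists, 43 of 104 tested genes rose and 13 fell with both drugs, DNASE2 included, a share higher of 41.3% beside 64.4% for the members and 25.7% for all genes.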

How the data were processed

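The authors deposited 1 table whose values are FPKM, per the file headers. Sources used here do not name the aligner, counter, build, annotation or strand setting. Titles gave the groups and replicate numbers. The members and lists were chosen with earlier results of these data known, and full statistics were given for up to 3 higher and 3 lower called members of a role, the transcription factors, and up to 3 called genes of each further list, by size of difference. Others with full statistics, such as LAMP1 and ATP6V1B2, were chosen after their values were seen. limma 3.58.1 (R 4.3.3) fitted 4 group means to log2(FPKM + 1) of the 9959 genes with at least 1 FPKM in 3 libraries, with Benjamini-Hochberg adjustment over those genes. Count tests named in the design were not used, since the unit is FPKM. FPKM steps gave whole reads for all 16361 genes above 0 (tolerance 1e-05, and 0.001 for 1 gene), used for limma's voom and for depth. GC content, from GENCODE 29, and length were removed as a loess trend in an alternative. Deviations of same-numbered libraries correlated by 0.24 to 0.82 (DMSO, ELI), 0.39 to 0.88 (DMSO, ABT) and 0.26 to 0.74 (ELI, ABT). The labels name no batch, so a pairing of these groups is only inferred, and the main fit has no term for it. Comb correlated by -0.40 to 0.16 and showed no such pairing. Whether Comb libraries were handled apart is not stated, so treatment and any such handling cannot be told apart in comparisons with Comb. Scripts were tested on simulated data.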

Additional observations from a re-analysis of the deposited data

Results flagged for a closer look

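limma's interaction test, of whether the effect of eliglustat differed with and without venetoclax, called 2 members and 4 further lysosomal genes that the text names. The 2 are 4.44% of the tested members, beside 5.34% of all genes, and neither call was kept whichever library was left out. The 4 further genes were named for a large difference between Comb and DMSO, and the interaction uses those libraries again. Of all 104 tested further genes 5 were called (4.81%), DNASE2 included. Among members the interaction was 0.55 for MANBA and 0.45 for SCARB2. The effect on MANBA was 0.67 without venetoclax and 1.22 with it, and that on SCARB2 -0.23 and 0.22, and the interaction is the second less the first. Both SCARB2 effects lost their calls without single libraries, and the second was -0.15 (adjusted p = 0.018) on removing the GC and length trend. For DNASE2 it was 1.11, with 0.03 without venetoclax and 1.14 with it, given as a description since this gene passed the filter on low values only through the Comb libraries. For the mannose 6-phosphate gene GNPTAB it was 0.86 (adjusted p = 0.034), for the cathepsin CTSO 0.56 (0.03) and for the sialic acid exporter SLC17A5 0.51 (0.015). Groups of 3 libraries were not searched for single libraries that stand apart.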

How the results depend on the processing

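Of 109 named results 72 kept direction and call in every alternative run, and of their 2522 alternative values 2337 did so, 159 lost the call, 8 gained one and 18 changed sign. The planned count tests were not run, because the deposited unit is FPKM. limma's voom on recovered reads and the block on 9 libraries were chosen after seeing the data. A filter of 5 FPKM leaves out 7 tested members. Leaving out each library gave 23 to 29 called members for ELI minus DMSO, 0 to 4 for ABT minus DMSO, 29 to 34 for Comb minus DMSO, 27 to 36 for Comb minus ABT, 3 to 11 for Comb minus ELI and 0 to 6 for the interaction. With only the libraries compared, ELI minus DMSO called 19 and Comb minus ELI 14, where fewer samples estimate the spread. Comb minus ELI called 14 with the GC and length trend removed, 17 with that and the replicate block, and 11 without the 4 libraries numbered 1. The interaction called 1 with no filter, 1 with a filter of 5 FPKM, 8 with the replicate block, 11 with the GC and length trend removed, 13 with both and 7 without the libraries numbered 1. Apart from the block on 9 libraries, counts under alternatives stand without the share of all genes called in the same setting. They therefore do not single out the members. ABT minus DMSO called 1 with the block and trend removal together and 4 with the block on 9 libraries. The replicate block on all 12 libraries changed no call of a named result. Among members that had not passed it added 3 in ELI minus DMSO, 1 in Comb minus DMSO, 3 in Comb minus ABT, 3 in Comb minus ELI and 6 in the interaction. This block gives Comb the replicate term of the other groups, though Comb libraries did not deviate with them. It is therefore no check of comparisons with Comb, the block calls of MAN2B1 and ATP6V0D1 there included.

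Sign changes with the GC and length trend removed, the same with the block, were CTSC (-0.353 in Comb minus ABT, -0.0833 in Comb minus DMSO), SCARB2 (-0.151 in Comb minus ABT), TFEB (0.00515 in Comb minus ABT) and TFE3 (-0.0363 in ABT minus DMSO). In ABT minus DMSO, TFE3 was also -0.0559 without the libraries numbered 1 and ranged from -0.0944 to 0.110 without single libraries, and TFEB was 0.0308 with median-of-ratios scaling, 0.0188 without the libraries numbered 1 and ranged from -0.0340 to 0.0420. The cause was not tested. The filter of 1 FPKM limits the 7 members left out.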

Other observations

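Genes of lysosomal nutrient sensing, which act upstream of the MiT/TFE factors, were called about as often as other genes with eliglustat. Of 22 tested, 4 rose (18.2%) and 5 fell with eliglustat, where 16.4% of all genes rose and 19.8% fell, and 8 rose (36.4%) and 3 fell with both drugs, where 25.7% rose and 25.8% fell. FNIP1, partner of folliculin, was at 7.07, 3.58 and 4.36 FPKM in DMSO, 12.4, 9.37 and 9.74 under ELI, 4.51, 3.77 and 2.89 under ABT and 12.1, 13.3 and 11.4 under Comb. It rose by 0.97 (adjusted p = 0.0024) with eliglustat and 1.18 (adjusted p = 0.00033) with both drugs. The Rag GTPase RRAGC rose by 0.51 and 0.69, and the Ragulator subunit LAMTOR3 by 0.53 with both drugs. FNIP1 and LAMTOR3 have a GC content of 38.9% and 37.7%. Values of the further genes with the GC and length trend removed are not given here, so the part of GC content in them is not shown.

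Of 8 tested inhibitors of cathepsins and related proteases, 2 rose (25% beside 25.7% of all genes) and 3 fell (25.8% of all genes) with both drugs. SERPINB1, which inhibits neutrophil serine proteases, rose by 0.39 (adjusted p = 0.00022) and was 0.29 above eliglustat alone (adjusted p = 0.007). CSTB, which inhibits cysteine cathepsins, rose by 0.38 (adjusted p = 0.027). SPINT1, an inhibitor of membrane serine proteases, was at 4.84, 6.89 and 4.88 FPKM in DMSO and 2.41, 2.62 and 2.70 under Comb, a difference of -0.86 (adjusted p = 8e-05).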
